A study of Mus musculus with 14 samples.

Results

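The kinesin motor genes were read across 14 RNA sequencing libraries of transformed mouse embryonic fibroblasts. The members were all genes whose mouse symbol is Kif followed by a number and, in some, a letter, a choice made by name alone. They numbered 38 of the 52636 genes in the deposited table, and 33 of them held at least 1 CPM (reads of a gene scaled to a fixed library total) in at least 2 libraries. Those 33 entered the comparisons, among 16157 genes tested. For description the members were sorted by known function into 12 mitotic kinesins, 15 transport kinesins and 11 others with roles at cilia, centrioles and elsewhere. Of these, 11 mitotic, 14 transport and 8 other members passed the limit on level. The motors Cenpe and the Kifc genes fall outside the naming rule and are given only as neighbours.

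Kinesins are ATP-driven motors that walk along microtubules or take them apart at their ends. Mitotic kinesins build and shorten the spindle, hold chromosomes to it and organise the midzone at which the cell divides, and most are made from late S phase to mitosis. Transport kinesins carry vesicles, mitochondria, RNA and ciliary cargo outward through the cytoplasm, and are present throughout the cell cycle. In a dividing fibroblast culture the first class is made mainly by cells passing through division.

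Per the labels, TRF1 of the naked mole rat (NMR), a telomere-binding protein, stood in these cells for the mouse protein, in wild-type form or with substitutions. These were Glu69Lys, Val70Ala and Ala75Thr in GLAD cells, Ala105Thr in TIN cells and all 4 in the double mutant. Each of the 3 mutants was cultured in normoxia (atmospheric oxygen) and in hypoxia (1% oxygen), and the wild type in normoxia, all in medium with 10% fetal calf serum. Each of the 7 groups had 2 libraries, A and B, and a wild-type hypoxia group was not analysed here. The labels do not say whether A and B were separate cultures or whether a mutant is more than 1 cell line, so p-values reflect only how far these libraries spread, possibly a technical spread, and line and substitution cannot be told apart. The wild-type libraries carry other names that hold the word Mouse, while their titles give NMR TRF1, so a batch of these libraries and the genotype cannot be told apart either.

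Depth as recovered from the steps of the deposited values ran from 11917019 to 15023528 reads per library, and a count of 0 allowed up to 0.200 to 0.252 CPM. Libraries A and B of the wild type stood apart, with a chi-square per gene of 22.2 between them, against 1.51 to 5.45 in the 6 mutant groups. Kif5b (175 and 107 CPM in A and B) and Kif1b (136 and 90.5 CPM) share that split, and values against the wild type rest on it. The fibroblast identity of the cells was visible in every library, with 9 of 11 fibroblast markers at 1 CPM or more throughout and Thy1 at or below 0.202 CPM. The summed fibroblast markers were 7418 to 15910 CPM. The blood marker Cd3e and the neural marker Snap25 were at 0 in every library, but other members of those lists were present throughout. The blood markers Csf1r and Cd68 ran from 15.2 to 29.0 and from 7.05 to 44.6 CPM. The neural markers Map2 and Tubb3 ran from 132 to 393 and from 4.24 to 60.5 CPM. All 5 hypoxia check genes (Car9, Bnip3, Vegfa, Slc2a1 and Pdk1) rose in each mutant. Terf1 reads ran from 87.1 to 186 CPM and do not tell the mouse from the NMR sequence.

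Per kilobase of transcript, the scale on which genes can be compared, the mitotic motor Kif20a was the most abundant kinesin at 87.7 CPM per kb (mean of 14 libraries). It was followed by the transport motor Kif1c at 54.9 and by the mitotic motors Kif23 at 50.02, Kif2c at 46.2, Kif11 at 41.3 and Kif4 at 34.3 CPM per kb. Kif5b, the heavy chain of conventional kinesin found in most tissues, held 31.5 CPM per kb, while its neuron-enriched paralogs Kif5c and Kif5a held 1.68 and 1.21. Kif14 and Kif18a were the scarcest mitotic members at 4.24 and 3.34 CPM per kb. The members that did not pass numbered 5. Kif2b, a kinetochore depolymerase, was at 0 in all 14 libraries. The epithelial motor Kif12 reached 0.103 CPM in its highest library, the ciliary motors Kif6 and Kif19a reached 0.454 and 0.674, and the neuronal vesicle motor Kif1a reached 0.886 CPM. Levels below are CPM scaled between libraries by trimmed mean of M values (TMM).

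Across the 7 groups the mitotic and transport classes were ordered differently. GLAD hypoxia held the lowest group mean for 7 of 11 mitotic members and for no transport member, and TIN hypoxia held the highest for 5 mitotic members. TIN hypoxia in turn held the lowest mean for 8 of 14 transport members. The wild type was lowest for 3 mitotic members (Kif11, Kif15 and Kif23) and for 4 transport members (Kif13a, Kif13b, Kif17 and Kif21a).

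Mitotic members with the short element TTTGAA near the start site are shown first by a stretch of promoter. This element is known as the cell cycle genes homology region (CHR), which the DREAM and MuvB complexes bind to restrict transcription to late cell cycle stages. RefSeq windows (GRCm38.p6) of 300 bases, from 250 before to 50 after the start site, were found for 31 of 38 members. The 80-base stretches run 5′ to 3′ on the gene's strand from 55 bases before to 25 bases after the start. Capitals mark TTTGAA or its reverse complement and CCAAT, the NF-Y element, or its reverse complement. The coordinates are chr19:37376327-37376406 (plus strand) for Kif11, chr9:122951026-122951105 (plus) for Kif15, chr7:127042396-127042475 (minus) for Kif22, chr9:61946775-61946854 (minus) for Kif23, chr11:102925100-102925179 (minus) for Kif18b, chr19:34922303-34922382 (plus) for Kif20b and chrX:100626010-100626089 (plus) for Kif4. For contrast the transport genes Kif3b, at chr2:153291361-153291440 (plus), and Kif3a, at chr11:53567314-53567393 (plus), are shown.
Kif11: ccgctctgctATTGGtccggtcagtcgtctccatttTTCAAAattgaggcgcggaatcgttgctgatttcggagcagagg
Kif15: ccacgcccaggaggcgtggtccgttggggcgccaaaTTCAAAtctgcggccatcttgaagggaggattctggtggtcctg
Kif22: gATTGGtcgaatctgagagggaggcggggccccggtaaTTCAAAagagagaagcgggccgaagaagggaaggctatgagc
Kif23: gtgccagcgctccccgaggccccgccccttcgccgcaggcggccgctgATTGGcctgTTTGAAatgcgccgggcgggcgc
Kif18b: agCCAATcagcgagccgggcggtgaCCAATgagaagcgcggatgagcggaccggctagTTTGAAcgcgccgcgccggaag
Kif20b: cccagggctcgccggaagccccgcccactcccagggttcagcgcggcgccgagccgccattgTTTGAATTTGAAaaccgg
Kif4: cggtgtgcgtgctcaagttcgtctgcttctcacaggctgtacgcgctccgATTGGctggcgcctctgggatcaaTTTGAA
Kif3b: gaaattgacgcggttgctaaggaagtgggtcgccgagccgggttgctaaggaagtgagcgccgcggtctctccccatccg
Kif3a: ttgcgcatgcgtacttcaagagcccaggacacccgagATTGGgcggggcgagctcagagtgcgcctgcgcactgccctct

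Matches were counted in the 300-base windows of members that passed the limit on level and had a window. TTTGAA, searched on both strands, lay in 9 of these 10 mitotic members (all but Kif18a). It lay in 0 of 10 transport members and 2 of 7 others (Kif26b and Kif27), against 17.9% of 32851 windows and 20.2% of 27025 genes. The 7 mitotic stretches printed are those with a match inside them, where matches began at positions −19 to 20 relative to the start site. Kif20b held 2 in tandem. Kif14 and Kif2c, with matches only at −228 and −103, and Kif18a, with none, are not printed. Kif1a, a transport member that did not pass, held a match. CCAAT lay in 6 of 10 mitotic, 3 of 10 transport and 3 of 7 other members, against 37.4% of windows. GCGGGAA, letters of an E2F site, lay in 0 of 10, 0 of 10 and 1 of 7 (4.6% of windows). ACGTG, the core that hypoxia-inducible factors bind, lay in 2 of 10 mitotic members (Kif18a and Kif22), 2 of 10 transport members (Kif1c and Kif21a) and 0 of 7 others (19.6% of windows). No match of 1 motif overlapped a match of another in these windows. These are matches of letters, and binding was not measured.

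In GLAD cells hypoxia lowered most mitotic kinesins. A gene was called when its adjusted p in limma was under 0.05, and 20 of the 33 kinesins were called, 7 higher and 13 lower, against 48.1% of all genes called either way. Kif17 and Kif26a are among the 7 and passed the limit on level through the libraries where they are high, which leaves 5 of 31 higher without them, a count made after the values were seen. Among the 11 mitotic members, 8 fell and 1 rose, while 26.0% of all genes fell and 22.1% rose. The median log2 difference was −0.45 for mitotic members, 0.06 for transport members and −0.04 for all genes tested. Without Kif17 the transport median was 0.0015. RNA per cell and the number of cells in division cannot be told apart in bulk libraries. Summed epithelial markers moved with oxygen in all mutants, from 1.55 to 9.15 CPM in their normoxia libraries to 17.2 to 63.3 CPM in the hypoxia libraries, mostly from Krt19. Summed blood cell markers went from 23.9 to 35.7 CPM in the mutants' normoxia libraries to 56.1 to 68.9 CPM in hypoxia. The blood cell rise lay mainly in Cd68, a lysosomal protein of macrophages, which went from 7.05 to 17.3 CPM in normoxia to 39.2 to 44.6 CPM in hypoxia, while Ptprc and Adgre1 were at or below 0.103 CPM and Cd3e at 0 in every library. Summed neural markers, mostly Map2, went from 387 to 398 CPM to 309 to 319 CPM in GLAD, from 253 to 259.6 CPM to 194 to 198 CPM in TIN and from 176 to 179.6 CPM to 167 to 170.1 CPM in the double mutant. In TIN Map2 fell from 232 and 239 to 132 and 138 CPM, while Tubb3 rose from 19.8 and 20.1 to 60.5 and 58.6 CPM. Among fibroblast markers Pdgfrb (−1.02, −0.93 and −1.65 in GLAD, TIN and the double mutant), Pdgfra, Lum and Col1a2 were called lower in every mutant. Fn1 was called higher in GLAD (1.00) and the double mutant (0.68). The part of these markers in the hypoxia results was not tested.

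Kif22, a chromokinesin that pushes chromosome arms away from the spindle poles (ENSMUSG00000030677, GRCm38 chromosome 7, 127027729 to 127042471), stood at 91.8 and 93.2 CPM in GLAD normoxia libraries A and B and 52.1 and 52.1 in GLAD hypoxia, 123 and 121 in TIN normoxia and 142 and 143 in TIN hypoxia, 82.6 and 82.3 in double-mutant normoxia and 72.5 and 68.7 in double-mutant hypoxia, and 77.4 and 93.5 in the wild type. Both GLAD hypoxia libraries lay below every other library, and both TIN hypoxia libraries lay above every other. The fall in GLAD was 0.82 ± 0.08 on the log2 scale (adjusted p = 2.2e-07), a level of 0.566 times that in normoxia. In TIN it rose by 0.22 ± 0.08 (adjusted p = 0.029) and in the double mutant it fell by 0.22 ± 0.08 (adjusted p = 0.028). The TIN call ended when any 1 of the 4 TIN libraries was left out, and the double-mutant call ended without normoxia library A or B or hypoxia library B.

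Kif2c, a depolymerase that frees wrongly attached microtubules from kinetochores, showed the same order of signs. It stood at 131 and 139 CPM in GLAD normoxia libraries A and B and 78.2 and 83.6 in GLAD hypoxia, 162 and 158 in TIN normoxia and 190.4 and 186 in TIN hypoxia, 152 and 158 in double-mutant normoxia and 104 and 96.9 in double-mutant hypoxia, and 98.3 and 103 in the wild type. Hypoxia and normoxia libraries did not overlap in any mutant. It fell by 0.73 ± 0.07 in GLAD and by 0.62 ± 0.07 in the double mutant and rose by 0.24 ± 0.07 in TIN, where the call was lost when TIN normoxia library B or hypoxia library A was left out. With the trend on transcript length and GC content removed from each library, the TIN value was 0.08 and was not called.

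Kif20a, which carries the chromosomal passenger complex to the midzone, stood at 360.1 and 375 CPM in GLAD normoxia libraries A and B and 241 and 260.3 in GLAD hypoxia, 339 and 343 in TIN normoxia and 436 and 429 in TIN hypoxia, 285 and 285 in double-mutant normoxia and 292 and 254 in double-mutant hypoxia, and 302 and 308 in the wild type. It fell by 0.55 ± 0.07 in GLAD and rose by 0.34 ± 0.07 in TIN, and its double-mutant difference of −0.07 ± 0.07 was not called. The TIN hypoxia libraries were the 2 highest of the 14. Kif20b, a midzone motor of cytokinesis, fell in all 3 mutants, by 0.68 ± 0.08, 0.33 ± 0.08 and 0.26 ± 0.08 in GLAD, TIN and the double mutant. The last of these calls ended without double normoxia library B or double hypoxia library B.

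Kif18a, which damps the swings of chromosomes at the metaphase plate (ENSMUSG00000027115, GRCm38 chromosome 2, 109280738 to 109341747), stood at 21.5 and 20.5 CPM in GLAD normoxia libraries A and B and 14.0 and 13.8 in GLAD hypoxia, 34.4 and 32.9 in TIN normoxia and 28.1 and 24.1 in TIN hypoxia, 24.8 and 21.0 in double-mutant normoxia and 17.6 and 16.3 in double-mutant hypoxia, and 19.6 and 15.9 in the wild type. In every mutant both hypoxia libraries lay below both normoxia libraries. It fell by 0.58 ± 0.12 in GLAD, 0.36 ± 0.12 in TIN and 0.42 ± 0.12 in the double mutant. The TIN call ended without either normoxia library or hypoxia library B, and the double-mutant call without normoxia library A or hypoxia library B. After removal of that trend the TIN values of Kif18a and Kif20b were −0.02 and −0.03, neither called.

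Kif23, the motor subunit of the centralspindlin complex that recruits the cytokinetic ring (ENSMUSG00000032254, GRCm38 chromosome 9, 61915905 to 61946774), was the mitotic member that rose in all 3 mutants. It stood at 128 and 137 CPM in GLAD normoxia libraries A and B and 164 and 162 in GLAD hypoxia, 171 and 164 in TIN normoxia and 312 and 319 in TIN hypoxia, 116 and 123 in double-mutant normoxia and 204 and 180.4 in double-mutant hypoxia, and 95.7 and 106 in the wild type. The TIN hypoxia libraries were far above the rest, and hypoxia libraries lay above normoxia libraries in each mutant. Kif23 rose by 0.30 ± 0.08 in GLAD, 0.91 ± 0.08 in TIN (adjusted p = 2.4e-08) and 0.68 ± 0.08 in the double mutant (adjusted p = 7.2e-07). The GLAD call ended without normoxia library A or hypoxia library A.

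Kif15, which can take over from Kif11 in keeping the spindle bipolar (ENSMUSG00000036768, GRCm38 chromosome 9, 122951046 to 123018733), stood at 59.4 and 56.9 CPM in GLAD normoxia libraries A and B and 69.4 and 63.7 in GLAD hypoxia, 83.4 and 83.5 in TIN normoxia and 115 and 117 in TIN hypoxia, 77.0 and 74.6 in double-mutant normoxia and 125 and 116 in double-mutant hypoxia, and 36.0 and 41.0 in the wild type. The wild-type libraries were the 2 lowest, and the 4 hypoxia libraries of TIN and the double mutant were the highest. It rose by 0.47 ± 0.08 in TIN and 0.66 ± 0.08 in the double mutant, and its GLAD difference of 0.19 ± 0.08 was not called. Kif4, a chromokinesin that works with Prc1 at the midzone, followed the same pattern with a rise of 0.64 ± 0.09 in TIN and 0.81 ± 0.09 in the double mutant and 0.13 ± 0.09, not called, in GLAD. Its levels in hypoxia were 149 and 149 CPM in GLAD libraries A and B, 249 and 259 in TIN and 255 and 209 in the double mutant.

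Kif11, which slides the spindle poles apart, and Kif14, a cytokinesis motor, fell in GLAD and were not called in TIN or the double mutant. Kif11 dropped from 188 and 198 CPM to 151 and 149 CPM in GLAD, which is a fall of 0.36 ± 0.08. Its differences of −0.14 ± 0.08 in TIN and 0.08 ± 0.08 in the double mutant were not called. Kif14 fell by 0.45 ± 0.11 in GLAD. Kif18b, which shortens astral microtubules, fell by 0.28 ± 0.09 in GLAD and rose by 0.45 ± 0.09 in the double mutant, where it went from 97.8 and 93.8 to 142 and 122 CPM. Its GLAD call ended without GLAD hypoxia library A, which also took the count of kinesins called in GLAD from 20 to 13.

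**Figure D1:**
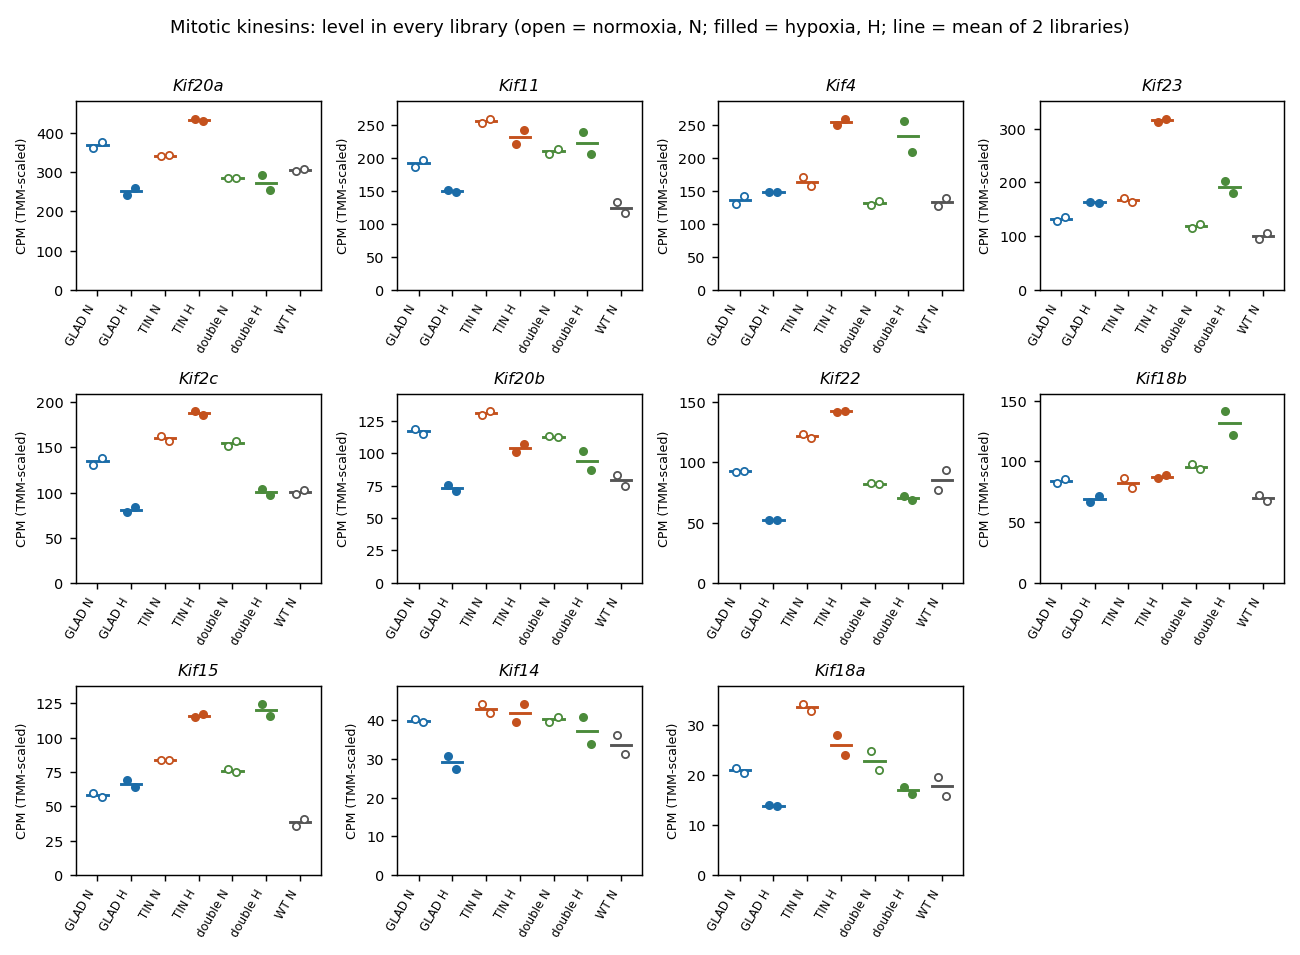
Level of the 11 mitotic kinesins that passed the limit on level, in TMM-scaled CPM (linear vertical axes from 0), in each library of the 7 groups, with N for normoxia and H for hypoxia. Open points are normoxia libraries, filled points hypoxia libraries and lines the mean of 2 libraries; Kif22 in GLAD hypoxia lies at 52.1 and 52.1 CPM, below all other libraries, and Kif23 in TIN hypoxia at 312 and 319 CPM, above all others.

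In TIN cells mitotic members were called higher more often than lower, and transport members were called lower. Hypoxia called 22 of 33 kinesins, 9 higher and 13 lower, against 53.9% of all genes. Without Kif17 and Kif26a 8 of 31 were higher. Of 11 mitotic members 6 rose and 2 fell, and of 13 transport members other than Kif17 none rose and 9 fell, where 25.6% of all genes rose and 28.3% fell. The median was 0.22 for mitotic members, against −0.0059 for all genes. For transport members it was −0.30 with Kif17 and −0.31 without it. Across 11698 genes the hypoxia effect in TIN also went with transcript length (Spearman −0.27, a description across genes, which are not replicates), and the median transcript of the transport members was longer (6562 bases) than that of the mitotic members (4819). With the length and GC trend removed 6 mitotic members were called higher (Kif14 in place of Kif2c) and 0 lower, and 9 transport members lower, with a median of −0.27.

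In the double mutant hypoxia called 19 kinesins, 10 higher and 9 lower, against 56.1% of all genes. Without Kif17 and Kif26a 9 of 31 were higher. Mitotic members were split, 4 higher and 4 lower, and 2 transport members rose while 4 fell, where 25.8% of all genes rose and 30.2% fell. The mitotic median of −0.07 lay near the −0.05 of all genes. The transport median was −0.05 with Kif17 and −0.17 without it. Averaged over the 3 mutants, 26 kinesins were called, 10 higher and 16 lower (67.5% of all genes, 30.6% higher and 37.0% lower), with 3 mitotic members higher (Kif4, Kif15 and Kif23) and 6 lower, and 8 of 31 kinesins were higher without Kif17 and Kif26a.

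The transport motors that fell in every mutant were Kif1c and Kif3b. Kif1c, a vesicle motor also known to carry RNA, went from 431 and 453 to 308 and 299.8 CPM in GLAD, from 416 and 402 to 325 and 342 in TIN and from 349 and 341 to 291 and 273 in the double mutant. Its falls were 0.54 ± 0.07, 0.30 ± 0.07 and 0.29 ± 0.07 on the log2 scale, and hypoxia and normoxia libraries did not overlap within any mutant. Kif3b, a kinesin-2 subunit that drives intraflagellar transport, fell by 0.22 ± 0.08, 0.31 ± 0.08 and 0.42 ± 0.08 in GLAD, TIN and the double mutant, where the GLAD call ended without any 1 of the 4 GLAD libraries and the TIN call without TIN normoxia library A. Its partner Kif3a was not called in GLAD (0.13 ± 0.08) and fell by 0.25 ± 0.08 in TIN and 0.23 ± 0.08 in the double mutant. The Kif3a call in TIN ended without normoxia library A or hypoxia library B, and that in the double mutant without normoxia library B or hypoxia library B. Kif3c, the alternative partner, was not called in any mutant, with −0.18 ± 0.09, −0.06 ± 0.09 and −0.17 ± 0.09.

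The endosome motors Kif13a and Kif16b fell in GLAD and in TIN. Kif13a, which carries recycling endosomes, went from 94.6 and 92.4 to 46.6 and 50.3 CPM in TIN, a fall of 0.94 ± 0.09, against 0.34 ± 0.09 in GLAD. The difference of these effects, TIN minus GLAD, was −0.61 ± 0.12 (adjusted p = 0.001). Kif16b, which sets the place of early endosomes, fell by 0.91 ± 0.11 in TIN and 0.34 ± 0.11 in GLAD, and the GLAD call ended without normoxia library B or hypoxia library A. The difference of its effects was −0.57 ± 0.15, a call that ended without GLAD normoxia library A. Neither was called in the double mutant. Their paralog Kif13b rose by 0.41 ± 0.08 in GLAD and was not called elsewhere (−0.06 ± 0.08 in TIN and 0.12 ± 0.08 in the double mutant).

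Kif1b, a motor of mitochondria and vesicles, fell by 0.93 ± 0.12 in TIN, from 191 and 198 to 98.6 and 105 CPM, and was not called in GLAD (0.00 ± 0.12) or the double mutant (−0.23 ± 0.12). Kif21a, a motor that restrains microtubule growth (ENSMUSG00000022629, GRCm38 chromosome 15, 90933276 to 91049948), stood at 41.4 and 43.7 CPM in GLAD normoxia libraries A and B and 46.9 and 44.9 in GLAD hypoxia, 57.8 and 57.4 in TIN normoxia and 33.5 and 33.6 in TIN hypoxia, 47.2 and 49.3 in double-mutant normoxia and 49.9 and 51.4 in double-mutant hypoxia, and 19.1 and 14.2 in the wild type. The wild-type libraries were the 2 lowest of the 14 and the TIN normoxia libraries the 2 highest. Kif21a fell in TIN by 0.77 ± 0.11 (adjusted p = 9.6e-06), with no call in GLAD (0.11 ± 0.11) or the double mutant (0.07 ± 0.11). Kif21b, its paralog (ENSMUSG00000041642, GRCm38 chromosome 1, 136131389 to 136177998), stood at 14.6 and 14.9 CPM in GLAD normoxia libraries A and B and 12.3 and 14.9 in GLAD hypoxia, 7.35 and 8.29 in TIN normoxia and 4.51 and 5.35 in TIN hypoxia, 7.29 and 7.74 in double-mutant normoxia and 8.08 and 12.8 in double-mutant hypoxia, and 14.7 and 13.5 in the wild type. The 8 libraries of TIN and of the double mutant lay below all 4 GLAD normoxia and wild-type libraries. It fell by 0.62 ± 0.18 in TIN, a call lost when TIN normoxia library B or hypoxia library A was left out, and the 2 double-mutant hypoxia libraries were far apart.

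The 3 heavy chains of conventional kinesin did not move together. Kif5b stood at 213 and 219 CPM in GLAD normoxia libraries A and B and 236 and 239 in GLAD hypoxia, 204 and 204 in TIN normoxia and 118 and 129 in TIN hypoxia, 175 and 168 in double-mutant normoxia and 251 and 222 in double-mutant hypoxia, and 175 and 107 in the wild type. It fell in TIN by 0.73 ± 0.14 (adjusted p = 2.3e-04) and rose in the double mutant by 0.46 ± 0.14 (adjusted p = 0.0083), where the call ended without normoxia library B or hypoxia library A, and its GLAD difference was 0.14 ± 0.14, not called. Kif5c, a neuron-enriched heavy chain (ENSMUSG00000026764, GRCm38 chromosome 2, 49619298 to 49774778), stood at 13.8 and 14.5 CPM in GLAD normoxia libraries A and B and 18.3 and 19.1 in GLAD hypoxia, 6.05 and 4.66 in TIN normoxia and 4.51 and 5.19 in TIN hypoxia, 8.51 and 9.49 in double-mutant normoxia and 14.1 and 13.6 in double-mutant hypoxia, and 15.6 and 13.8 in the wild type. All 4 TIN libraries lay below all 10 others. Kif5c rose by 0.59 ± 0.14 in the double mutant and by 0.39 ± 0.14 in GLAD, a call that ended without any 1 of the 4 GLAD libraries or double normoxia library A, and was not called in TIN (−0.12 ± 0.14). Kif5a, the other neuron-enriched chain (ENSMUSG00000074657, GRCm38 chromosome 10, 127225696 to 127263348), stood at 9.00 and 8.44 CPM in GLAD normoxia libraries A and B and 10.0 and 11.6 in GLAD hypoxia, 6.15 and 6.20 in TIN normoxia and 5.97 and 6.00 in TIN hypoxia, 9.24 and 8.74 in double-mutant normoxia and 4.04 and 4.79 in double-mutant hypoxia, and 7.61 and 8.56 in the wild type. The double-mutant hypoxia libraries were the 2 lowest. Kif5a fell there by 0.95 ± 0.15 (adjusted p = 2.4e-05), with 0.29 ± 0.15 in GLAD and −0.04 ± 0.15 in TIN, neither called.

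Kif17, a kinesin-2 motor of cilia and dendrites, was close to the limit of detection and passed the limit on level only through its hypoxia libraries. It stood at 0.337 and 0.393 CPM in GLAD normoxia libraries A and B and 1.77 and 1.56 in GLAD hypoxia, 0.15 and 0.695 in TIN normoxia and 1.25 and 1.06 in TIN hypoxia, 0.538 and 0.7 in double-mutant normoxia and 1.29 and 1.01 in double-mutant hypoxia, and 0.252 and 0.41 in the wild type. All 6 hypoxia libraries lay above all 8 normoxia libraries, and 1 normoxia library lay under the 3-read limit of its depth. Since Kif17 could pass only through its hypoxia level, these values are a description and no call on it is read as a result.

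**Figure D2:**
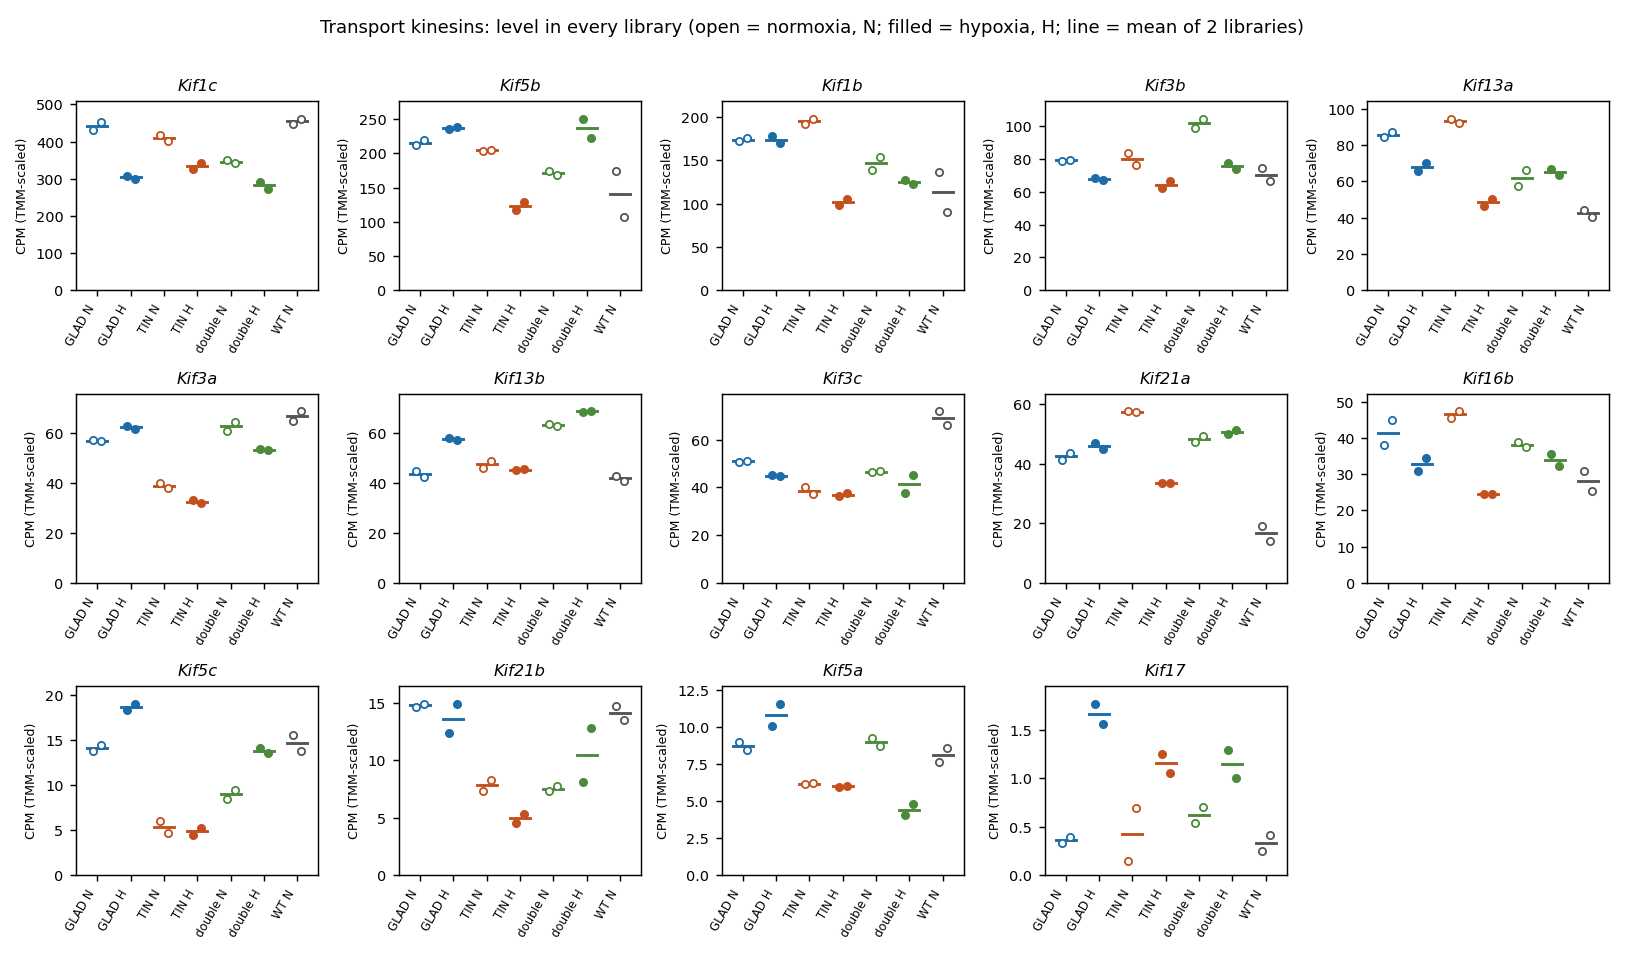
Level of the 14 transport kinesins that passed the limit on level, in TMM-scaled CPM (linear vertical axes from 0), in each library of the 7 groups, with N for normoxia and H for hypoxia. Open points are normoxia libraries, filled points hypoxia libraries and lines the mean of 2 libraries; TIN hypoxia has the lowest mean of the 7 groups for 8 of the 14, and the wild-type libraries of Kif5b lie apart at 175 and 107 CPM.

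Among the remaining kinesins, Kif26b varied most of all members. Kif26b, a kinesin-like protein that takes part in kidney development and Wnt5a signalling (ENSMUSG00000026494, GRCm38 chromosome 1, 178529125 to 178939200), stood at 66.1 and 72.7 CPM in GLAD normoxia libraries A and B and 20.3 and 23.8 in GLAD hypoxia, 28.2 and 30.01 in TIN normoxia and 9.93 and 9.68 in TIN hypoxia, 9.34 and 9.39 in double-mutant normoxia and 4.51 and 3.38 in double-mutant hypoxia, and 137 and 116 in the wild type. Hypoxia libraries lay below normoxia libraries in each mutant, and within normoxia the groups were ordered wild type, GLAD, TIN and double mutant from high to low without overlap. It fell in hypoxia by 1.63 ± 0.13 in GLAD (adjusted p = 1.0e-08), 1.52 ± 0.13 in TIN (adjusted p = 2.2e-08) and 1.16 ± 0.13 in the double mutant (adjusted p = 4.5e-07). These 3 effects were not called different from one another, with differences of 0.11 ± 0.18 for TIN minus GLAD, 0.47 ± 0.18 for double minus GLAD and 0.36 ± 0.18 for double minus TIN. Against the wild type in normoxia it was called lower, at −0.86 ± 0.13, −2.10 ± 0.13 and −3.68 ± 0.13 (log2) in GLAD, TIN and the double mutant. Those 3 comparisons share the wild-type libraries, which lay at 137 and 116 CPM.

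Its paralog Kif26a, which restrains growth signalling in enteric neurons, went the other way at a far lower level. Kif26a stood at 0.53 and 0.54 CPM in GLAD normoxia libraries A and B and 1.67 and 2.06 in GLAD hypoxia, 0.3 and 0.199 in TIN normoxia and 0.502 and 0.606 in TIN hypoxia, 1.22 and 0.949 in double-mutant normoxia and 2.43 and 2.62 in double-mutant hypoxia, and 0.454 and 0.308 in the wild type, and it passed the limit on level through GLAD hypoxia and the double mutant. In every mutant both hypoxia libraries lay above both normoxia libraries. As for Kif17, the level that let it pass is the level compared, so the values are a description. Kif26a is 1 of the members counted as higher in the double mutant against each other group in normoxia and against TIN in hypoxia, and as lower in TIN against GLAD in hypoxia. Kif24, which holds back cilium formation at the mother centriole (ENSMUSG00000028438, GRCm38 chromosome 4, 41390745 to 41464887), stood at 12.7 and 14.3 CPM in GLAD normoxia libraries A and B and 21.3 and 17.7 in GLAD hypoxia, 20.2 and 19.8 in TIN normoxia and 21.4 and 21.3 in TIN hypoxia, 14.5 and 15.3 in double-mutant normoxia and 27.9 and 24.2 in double-mutant hypoxia, and 10.9 and 7.33 in the wild type. The wild-type libraries were the 2 lowest, and the double-mutant hypoxia libraries the 2 highest. Kif24 rose in the double mutant by 0.78 ± 0.15 and in GLAD by 0.51 ± 0.15, a call that ended without GLAD normoxia library A or GLAD hypoxia library A.

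Kif2a, a depolymerase of spindle poles and neurons, rose in the double mutant by 0.39 ± 0.09 and fell in TIN by 0.36 ± 0.09. Its libraries read 120.0 and 118 CPM in TIN normoxia, 93.9 and 91.5 in TIN hypoxia, 76.6 and 77.2 in double-mutant normoxia and 106 and 96.4 in double-mutant hypoxia. The rise of 0.23 ± 0.09 called in GLAD ended without any 1 of 10 libraries, and the TIN fall became −0.07, not called, with the length and GC trend removed. Kif28 (ENSMUSG00000087236, GRCm38 chromosome 1, 179695297 to 179745271) stood at 1.83 and 1.32 CPM in GLAD normoxia libraries A and B and 2.07 and 2.27 in GLAD hypoxia, 2.10 and 2.28 in TIN normoxia and 4.41 and 5.24 in TIN hypoxia, 1.96 and 1.95 in double-mutant normoxia and 3.26 and 3.13 in double-mutant hypoxia, and 3.83 and 4.21 in the wild type. It rose by 0.98 ± 0.19 in TIN and 0.59 ± 0.19 in the double mutant, the latter a call that ended without double-mutant normoxia library A or hypoxia library A. Kif7, which works at the cilium tip in Hedgehog signalling, rose in TIN by 0.39 ± 0.11, a call that ended without TIN hypoxia library A. Kif27, a relative of Kif7 with a role in motile cilia (ENSMUSG00000060176, GRCm38 chromosome 13, 58287502 to 58359122), stood at 2.22 and 1.96 CPM in GLAD normoxia libraries A and B and 2.91 and 3.32 in GLAD hypoxia, 1.60 and 2.53 in TIN normoxia and 1.76 and 1.56 in TIN hypoxia, 1.52 and 1.95 in double-mutant normoxia and 2.38 and 2.12 in double-mutant hypoxia, and 5.94 and 5.33 in the wild type. Both wild-type libraries lay above all 12 mutant libraries. Neither Kif27 nor the ciliary motor Kif9 was called for hypoxia in any mutant.

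**Figure D3:**
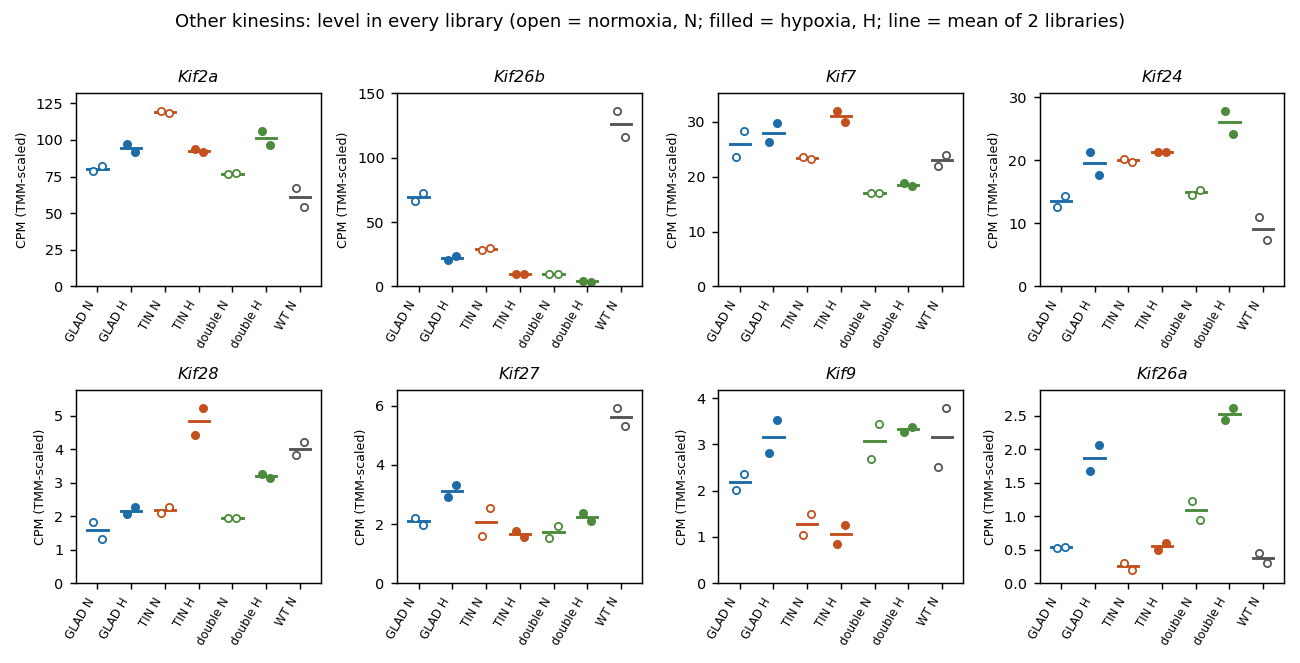
Level of the 8 remaining kinesins that passed the limit on level, in TMM-scaled CPM (linear vertical axes from 0), in each library of the 7 groups, with N for normoxia and H for hypoxia. Open points are normoxia libraries, filled points hypoxia libraries and lines the mean of 2 libraries; Kif26b falls from 137 and 116 CPM in the wild type to 4.51 and 3.38 CPM in double-mutant hypoxia.

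**Figure D4:**
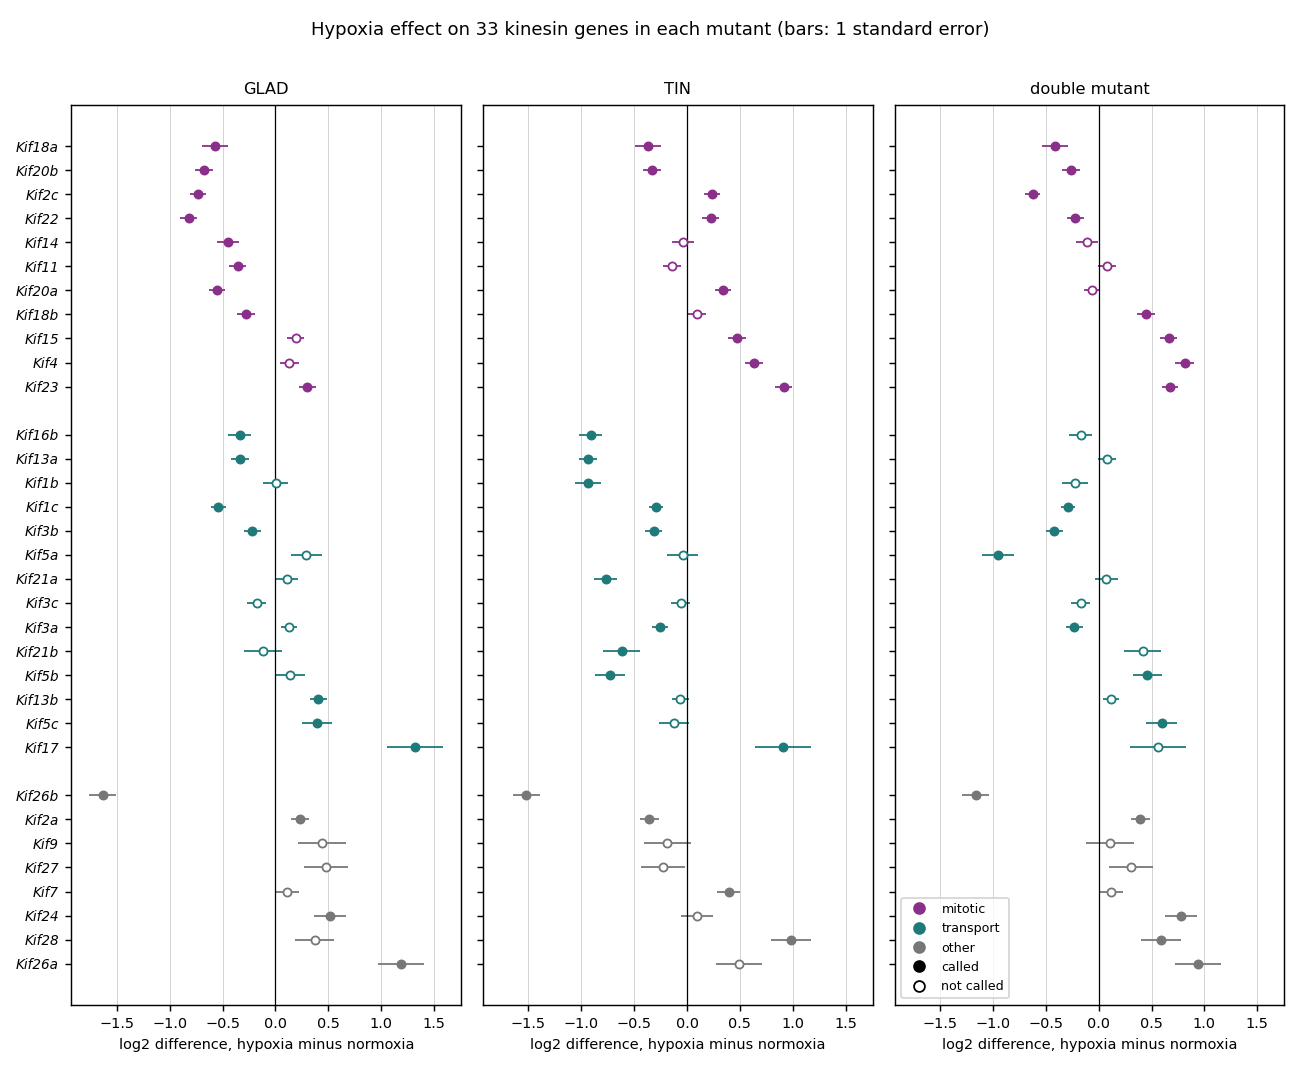
Hypoxia effect on each of the 33 kinesins in GLAD, TIN and the double mutant, as the log2 difference of hypoxia minus normoxia (horizontal axis) with bars of 1 standard error. Filled points were called (adjusted p under 0.05) and open points were not, and colours mark the classes; 8 of 11 mitotic members are called lower in GLAD and 6 are called higher in TIN, and Kif26b is called lower in all 3.

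The hypoxia effects of many members differed between TIN and GLAD. TIN minus GLAD was called for 16 of 33 kinesins, 8 higher and 8 lower, against 33.9% of all genes. All 8 higher were mitotic and 7 of the 8 lower were transport motors, where 16.4% of all genes were higher and 17.5% lower. The largest mitotic differences were Kif22 (1.04 ± 0.12), Kif2c (0.97 ± 0.10), Kif20a (0.89 ± 0.10) and Kif23 (0.61 ± 0.11). The largest transport differences were Kif1b (−0.94 ± 0.17), Kif21a (−0.88 ± 0.15), Kif5b (−0.87 ± 0.20) and Kif13a (−0.61 ± 0.12), and Kif2a stood at −0.59 ± 0.13. Over all genes this difference went with transcript length (Spearman −0.47 across 11698 genes), and with the length and GC trend removed it was called higher for 10 mitotic and 2 transport members and lower for 5 transport members.

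Double minus GLAD was called for 11 kinesins (14.5% of all genes, 6.91% higher and 7.63% lower), 9 higher and 2 lower. Of the 9 higher, 8 were mitotic, led by Kif18b (0.73 ± 0.12), Kif4 (0.68 ± 0.12), Kif22 (0.60 ± 0.12) and Kif20a (0.49 ± 0.10). Kif13a was higher (0.42 ± 0.12), and Kif5a (−1.25 ± 0.21) and Kif3a (−0.36 ± 0.11) were lower. The calls on Kif13a and Kif3a ended without any 1 of 5 and any 1 of 10 libraries. Leaving out single libraries took the 11 down to 6 without GLAD normoxia B, GLAD hypoxia B, double normoxia A or double hypoxia A, and to 7 without GLAD hypoxia A. Double minus TIN was called for 14 kinesins, near the share of all genes called (42.8%, with 21.4% higher and 21.4% lower). Of these, 7 transport and 1 mitotic member were higher, and 1 transport and 3 mitotic members lower. The highest transport members were Kif5b (1.19 ± 0.20), Kif21b (1.03 ± 0.25), Kif13a (1.02 ± 0.12) and Kif21a (0.84 ± 0.15), and Kif5a was lower (−0.91 ± 0.21). Kif18b was higher (0.36 ± 0.12), a call that ended without any 1 of 5 libraries, and Kif2c (−0.86 ± 0.10), Kif22 (−0.44 ± 0.12) and Kif20a (−0.41 ± 0.10) were lower, while Kif2a (0.75 ± 0.13) and Kif24 (0.69 ± 0.21) were higher. These 3 differences share libraries in pairs.

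The mitotic and transport classes lay on opposite sides between TIN and GLAD in hypoxia. Here 27 of 33 kinesins were called, 12 higher and 15 lower in TIN, against 63.1% of all genes. All 11 mitotic members that passed were higher in TIN and 11 of 14 transport members were lower, with none of the opposite call in either class, where 31.0% of all genes were higher and 32.1% lower. The medians were 0.78 for mitotic members, −0.46 for transport members (−0.48 without Kif17) and −0.0048 for all genes. This comparison shares its libraries with the hypoxia effects of TIN and GLAD. Leaving out 1 library kept 10 or 11 mitotic and 9 to 11 transport calls, and the call of Kif18b ended without GLAD hypoxia library A.

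For the mitotic members the differences ran from 0.34 ± 0.09 for Kif18b to 1.44 ± 0.08 for Kif22 (adjusted p = 7.2e-11), with 1.22 ± 0.07 for Kif2c (adjusted p = 1.2e-10), 0.95 ± 0.08 for Kif23 and 0.88 ± 0.12 for Kif18a. The TIN libraries lay above the GLAD libraries for all 11. Among transport motors the lowest were Kif5c (−1.84 ± 0.14), Kif21b (−1.38 ± 0.18), Kif5b (−0.95 ± 0.14) and Kif3a (−0.93 ± 0.08). Kif17, Kif3b and Kif1c were not called, with −0.39 ± 0.26, −0.08 ± 0.08 and 0.13 ± 0.07. Of the others, Kif28 was higher by 1.00 ± 0.19, and Kif9, Kif26b and Kif27 were lower, at −1.24, −1.13 and −0.74.

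The transport side of this split changed once the trends on transcript length and GC content were removed together; neither was removed alone. Over all genes the difference of TIN from GLAD in hypoxia went with transcript length (Spearman −0.40 across 11698 genes). With the trend on length and GC content removed, all 11 mitotic members were still called higher, with a median of 1.09. Of the transport members 6 were then called lower (Kif1b, Kif21b, Kif3a, Kif5a, Kif5b and Kif5c) and 2 higher (Kif1c and Kif3b), with a median of −0.18. Kif13b, Kif16b, Kif21a and Kif3c changed sign and were no longer called, Kif13a was no longer called, and Kif2a became higher at 0.41. Markers of other cell types also differed between these libraries. Summed fibroblast markers were 10810 to 12330 CPM in GLAD hypoxia and 7692 to 7777 CPM in TIN hypoxia. Single members of that list moved further, with Lum at −3.51, Dcn at −3.31, Col1a2 at −1.68 and Col1a1 at −1.48 (log2, TIN against GLAD). Only S100a4 was called higher (0.81), and Vim was not called (0.07). Summed neural markers were 309 to 319 CPM in GLAD hypoxia and 194 to 198 CPM in TIN hypoxia, with 2 of 6 at 1 CPM or more in every library and Snap25 at 0. Most of that sum is Map2, at 311 and 300.1 CPM in GLAD hypoxia and 132 and 138 CPM in TIN hypoxia. The neuronal tubulin Tubb3 went the other way, from 6.35 and 8.66 CPM in GLAD hypoxia to 60.5 and 58.6 CPM in TIN hypoxia (2.92), and the glial filament Gfap was also higher in TIN (1.02). Summed endothelial markers, mostly Tek, were 14.4 to 14.8 CPM in GLAD hypoxia and 3.48 to 3.81 CPM in TIN hypoxia, and summed motile cilium markers 4.18 to 4.73 and 7.01 to 8.98 CPM. Summed epithelial markers were 32.9 to 36.7 and 60.9 to 63.3 CPM, mostly from Krt19, with Epcam and Cdh1 at or below 0.502 CPM in every library, and their part in the result was not tested.

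**Figure D5:**
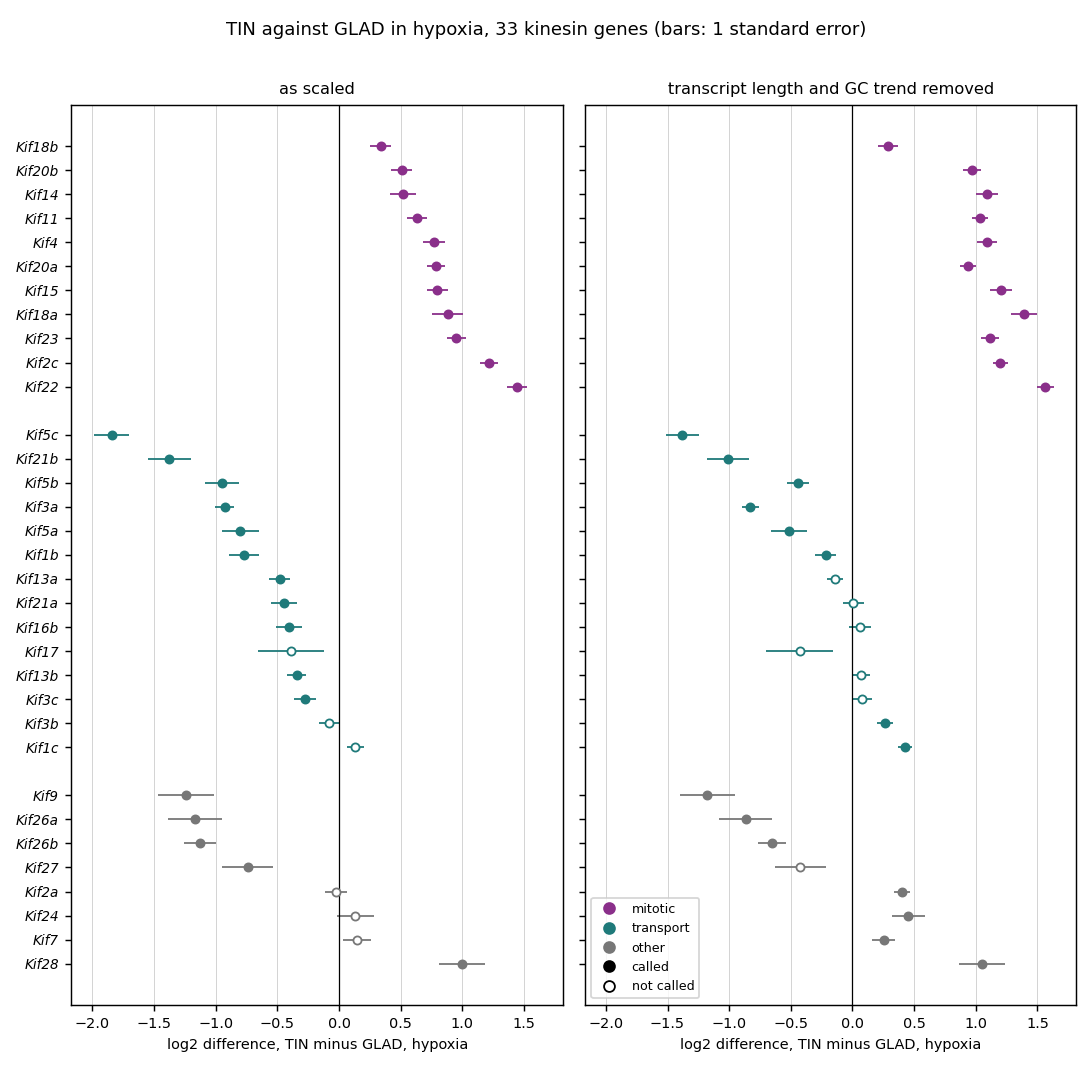
Difference of TIN from GLAD in hypoxia (log2, horizontal axis, bars of 1 standard error) for the 33 kinesins, as scaled on the left and with the trend on transcript length and GC content removed from each library on the right. Filled points were called and open points were not; all 11 mitotic members are called higher on both sides, while transport members called lower number 11 on the left and 6 on the right.

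In hypoxia most mitotic members that were called were higher in the double mutant than in GLAD and lower than in TIN. Against GLAD 17 kinesins were called (42.5% of all genes, 21.5% higher and 21.0% lower), with 9 mitotic members higher and none lower, led by Kif18b (0.92 ± 0.09), Kif15 (0.85 ± 0.08), Kif4 (0.63 ± 0.09) and Kif11 (0.57 ± 0.08). The transport members called lower were Kif5a (−1.20 ± 0.15), Kif1b (−0.47 ± 0.12), Kif5c (−0.42 ± 0.14) and Kif3a (−0.22 ± 0.08), and Kif13b (0.25 ± 0.08) and Kif24 (0.41 ± 0.15) were higher. Kif26b stood at −2.35 ± 0.13 and Kif7 at −0.58 ± 0.11. Without GLAD hypoxia B or double hypoxia A the count of 17 was 11. The calls on Kif13b and Kif5c ended without any 1 of the 4 hypoxia libraries compared, that on Kif3a without any 1 of 7 libraries, that on Kif1b without GLAD hypoxia A, and that on Kif24 without GLAD hypoxia B or double hypoxia A. Against TIN 23 kinesins were called (64.0% of all genes, 32.2% higher and 31.8% lower), with 5 mitotic members lower, 1 higher (Kif18b, 0.59 ± 0.09) and 10 transport members higher. The mitotic differences were led by Kif22 (−1.01 ± 0.08), Kif2c (−0.91 ± 0.07), Kif23 (−0.72 ± 0.08) and Kif20a (−0.67 ± 0.07), and the transport differences by Kif5c (1.42 ± 0.14), Kif21b (0.98 ± 0.18), Kif5b (0.94 ± 0.14) and Kif3a (0.70 ± 0.08). Kif5a (−0.40 ± 0.15) and Kif1c (−0.24 ± 0.07) were lower. Both calls ended without TIN hypoxia library B, and that on Kif5a also without TIN hypoxia A or double hypoxia A. After removal of the length and GC trend the mitotic members called lower were 10 and the transport members called higher 5.

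In normoxia every mutant had more mitotic kinesin RNA than the wild type where a call was made. GLAD against wild type called 19 kinesins (55.2% of all genes, 27.0% higher and 28.2% lower), with 7 mitotic members higher and 0 lower, led by Kif11 (0.62 ± 0.08), Kif15 (0.59 ± 0.08), Kif20b (0.56 ± 0.08) and Kif2c (0.42 ± 0.07). TIN called 26 (60.2% of all genes, 31.4% higher and 28.8% lower), with 10 mitotic members higher, led by Kif15 (1.11 ± 0.08), Kif11 (1.04 ± 0.08), Kif18a (0.91 ± 0.12) and Kif23 (0.73 ± 0.08). The double mutant called 25 (56.8% of all genes, 28.3% higher and 28.6% lower), with 8 mitotic members higher, led by Kif15 (0.97 ± 0.08), Kif11 (0.75 ± 0.08), Kif2c (0.62 ± 0.07) and Kif20b (0.51 ± 0.08). The medians of the mitotic class were 0.27, 0.67 and 0.36. After removal of the length and GC trend the double mutant had 5 mitotic members higher and 1 lower, and Kif14 stood at −0.05, not called. Summed fibroblast markers were 15130 to 15910 CPM in the wild type and 7418 to 10920 CPM in the mutants' normoxia libraries. Within that list Dcn, a matrix proteoglycan, stood at 13.0 and 13.6 CPM in the wild type, 389 and 401 CPM in GLAD, 34.1 and 37.0 CPM in TIN and 1299 and 1334 CPM in the double mutant, and the part of these markers in the result was not tested. All 3 comparisons share the 2 wild-type libraries, so their likeness is no separate result.

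Kif11 stood at 133 and 117 CPM in wild-type libraries A and B, against 188 and 198 in GLAD, 254 and 260.5 in TIN and 207 and 214 in the double mutant. The 2 wild-type libraries were the lowest of the 14. Among transport motors Kif21a was higher than the wild type by 1.34 ± 0.11 in GLAD, 1.78 ± 0.11 in TIN and 1.52 ± 0.11 in the double mutant, and Kif13a by 1.01 ± 0.09, 1.13 ± 0.09 and 0.54 ± 0.09. Kif5b was higher in GLAD (0.65 ± 0.14) and TIN (0.57 ± 0.14), against wild-type libraries that stood apart. Kif3c was lower in all 3, at −0.43, −0.83 and −0.56, and Kif5c was lower in TIN at −1.39 and in the double mutant at −0.68. Kif21b was lower in TIN at −0.81 and in the double mutant at −0.86. Of the others, Kif27 was lower in all 3 mutants at −1.25, −1.28 and −1.47, and Kif28 at −1.13, −0.75 and −0.88.

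Between mutants in normoxia, TIN against GLAD called 17 kinesins (51.7% of all genes, 27.6% higher and 24.1% lower), with 7 mitotic members higher, none lower, and 5 transport members lower. The mitotic differences were led by Kif18a (0.67 ± 0.12), Kif15 (0.52 ± 0.08), Kif11 (0.42 ± 0.08) and Kif22 (0.40 ± 0.08), and the transport ones by Kif5c (−1.33 ± 0.14), Kif21b (−0.88 ± 0.18), Kif3a (−0.54 ± 0.08) and Kif5a (−0.47 ± 0.15). Kif21a was higher (0.43 ± 0.11). Without GLAD normoxia library A the count was 11, and Kif21a and Kif5a were no longer called, the latter also without TIN normoxia A. Removing the length and GC trend moved the share of all called genes that were higher from 53.4% to 63.5%, and the transport members then split 5 higher and 4 lower. The double mutant against GLAD called 12 (35.7% of all genes, 18.4% higher and 17.2% lower), with 2 mitotic members higher (Kif15 and Kif2c) and 1 lower (Kif20a, −0.37 ± 0.07), and the Kif2c call ended without any 1 of 7 libraries. Of the transport members, Kif13b (0.54 ± 0.08) and Kif3b (0.36 ± 0.08) were higher and Kif21b (−0.93 ± 0.18), Kif5c (−0.62 ± 0.14), Kif13a (−0.47 ± 0.09) and Kif1c (−0.36 ± 0.07) were lower. The double mutant against TIN called 24 (48.7%, 22.9% higher and 25.8% lower), with 7 mitotic members lower, led by Kif22 (−0.56 ± 0.08), Kif18a (−0.55 ± 0.12), Kif23 (−0.48 ± 0.08) and Kif4 (−0.32 ± 0.09), and Kif18b higher (0.22 ± 0.09). Of the transport members 6 were higher, led by Kif5c (0.71 ± 0.14), Kif3a (0.68 ± 0.08), Kif5a (0.51 ± 0.15) and Kif13b (0.41 ± 0.08), and 4 were lower, namely Kif13a (−0.60 ± 0.09), Kif1b (−0.41 ± 0.12), Kif16b (−0.28 ± 0.11) and Kif1c (−0.24 ± 0.07). The call on Kif18b ended without any 1 of 5 libraries (TIN normoxia B, double normoxia A or B, TIN hypoxia A or B) and that on Kif16b without any 1 of 9. Without double normoxia library A the count was 15, and Kif1b, Kif1c and Kif4 were no longer called. Kif1b was also lost without TIN normoxia B, and Kif1c and Kif4 without TIN normoxia A. Removing the length and GC trend moved the share of called genes that were higher from 47.0% to 35.9%. Summed endothelial markers were 13.8 to 14.4 CPM in GLAD normoxia, 2.95 to 3.17 CPM in TIN and at most 2.30 CPM in the double mutant. Summed neural markers were 387 to 398, 253 to 259.6 and 176 to 179.6 CPM in the same order, and the part of these markers in the differences was not tested.

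The proteins that work with the mitotic motors are given from a list of 22 partners, of which 21 were tested. In hypoxia 12 of the 21 fell and 0 rose in GLAD, 14 rose and 4 fell in TIN, and 10 rose and 3 fell in the double mutant. Over all genes 22.1% rose and 26.0% fell in GLAD, 25.6% and 28.3% in TIN, and 25.8% and 30.2% in the double mutant. The medians of the partners were −0.23, 0.30 and 0.21. Plk1, the kinase that docks on Kif20a and Kif23, fell in all 3 (−1.13, −0.39 and −0.88). Ect2, the exchange factor that centralspindlin activates, fell in GLAD (−0.46) and TIN (−0.81) and was not called in the double mutant (−0.10). Spc25, a kinetochore subunit, rose in TIN (0.73) and the double mutant (0.60) and was not called in GLAD (−0.11). In TIN against GLAD in hypoxia 18 partners were higher and 1 lower, where 31.0% and 32.1% of all genes were, with a median of 0.76.

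Reference genes of G2/M and S phase were counted in the same way. Of 14 G2/M reference genes, 10 fell and 2 rose in GLAD hypoxia, 5 fell and 4 rose in TIN, and 7 fell and 3 rose in the double mutant. Over all genes 26.0% fell and 22.1% rose in GLAD, 28.3% and 25.6% in TIN, and 30.2% and 25.8% in the double mutant. The TIN counts and the count that rose in the double mutant lie near these shares. The cyclin Ccnb1 fell in all 3 (−1.20, −0.63 and −0.81), the ubiquitin ligase component Ube2c fell in all 3 (−1.16, −0.29 and −1.17), and the proliferation marker Mki67 rose in all 3 (1.02, 0.97 and 1.48). Of 18 S phase genes, 11 rose in each mutant, with 0, 3 and 1 lower in GLAD, TIN and the double mutant. The same shares of all genes stand beside these counts. Cdc6, Fen1 and Cdc45 rose on average by 0.97, 0.78 and 0.76. All 14 G2/M genes and 14 of 18 S phase genes were higher in TIN than in GLAD in hypoxia, with medians of 0.85 and 0.55. Over all genes 31.0% were higher there.

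Of 20 regulators of G2/M transcription, 13 rose and 3 fell in hypoxia on average over the mutants, where 30.6% of all genes rose and 37.0% fell. Cdkn1a, the p21 inhibitor of cyclin-dependent kinases, rose by 2.96 in TIN and 2.31 in the double mutant and by 0.24 in GLAD. The mutants started from different levels, with 32.4 and 27.4 CPM in TIN normoxia, 217 and 214 CPM in GLAD and 87.8 and 87.7 CPM in the double mutant. In hypoxia Cdkn1a stood at 244 and 228 CPM in TIN, 254 and 255 CPM in GLAD and 453 and 424 CPM in the double mutant, and the TIN to GLAD difference of −0.11 was not called. Mybl2, a MuvB activator, rose by 1.07 and the repressor E2f7 by 1.03 on average. Foxm1, the late cell cycle activator, fell in GLAD (−0.34) and was not called in TIN (0.08) or the double mutant (−0.13). Foxm1 here, and Kifc1 and Cenpe below, lay outside the rule for named genes and were chosen after their values were seen.

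Cargo adaptors and the opposing motor, dynein, were read the same way. Of 10 kinesin light chains and adaptors tested, 7 fell and 2 rose on average in hypoxia, where 37.0% of all genes fell and 30.6% rose. Kifap3, the subunit that joins Kif3a and Kif3b to cargo, fell by 0.57, 0.60 and 0.82 (log2) in GLAD, TIN and the double mutant, Mapk8ip1 fell by 0.57 and the light chain Klc4 by 0.49 on average. Of 21 dynein and dynactin genes tested, 6 rose and 7 fell, shares close to those of all genes, with Dynlt1b at −0.68, Dynll1 at 0.48 and Dync1li2 at −0.48 among those called. Among the heavy chains outside the naming rule, the minus-end spindle motor Kifc1 fell in GLAD (−0.40) and the double mutant (−0.19) and rose in TIN (0.54), while on average Kifc3 fell (−0.42) and Kifc5b (0.39) and Kifc2 (0.32) rose. The kinetochore motor Cenpe fell in GLAD (−0.38), rose in the double mutant (0.44) and was not called in TIN (0.13). Reads of Kifc1 and its near copy Kifc5b may be split between them, and the strand setting of the counting was not given in the sources used here. The copies Kif4-ps and Kif22-ps were at 0 in every library, and the antisense gene Kif16bos reached 0.104 CPM.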

How the data were processed

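Gene expression was measured by RNA sequencing in 14 libraries. The submitters' processing notes name STAR, HTSeq, GRCm38.p4 and mm10, without program versions. The authors deposited CPM for 52636 Ensembl genes, each column summing to the same total. The deposited values were whole multiples of a small step. Reads were recovered as the whole numbers that, multiplied by a factor of 1.33 to 1.68 steps and rounded up, gave 99.0% to 100% of the low steps, which set the depths stated. Annotation release and strand setting are not given in the sources used here.

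CPM were scaled by TMM factors (30% of log ratios and 5% of levels trimmed), genes with 1 CPM or more in 2 or more libraries were kept, and 0.5 CPM was added before log2, which understates changes of low genes. limma 3.58.1 in R 4.3.3 fitted 7 group means with moderated variances along the trend on level (7 residual and 11 prior degrees of freedom). Benjamini-Hochberg adjustment ran over 16157 genes, separately for each of 16 comparisons. Errors after ± are standard errors of log2 differences from this model with n = 2 libraries per group. One variance per gene was fitted over all 7 groups, although the wild-type libraries spread more (chi-square per gene of 22.2 against 1.51 to 5.45). Errors against the wild type may thus be too small, and those between mutants too large. In a fit without the wild type 25 single member values gained a call and 404 kept their side of the threshold. Gene positions and transcript lengths (the longest transcript) came from GENCODE for GRCm38, and promoter windows from RefSeq (GRCm38.p6). The fit was tested on simulated data with the same noise setting in every group, unlike the wild-type libraries here. Every simulated group was drawn from the GLAD normoxia levels, and 50 genes for each size of change were altered in GLAD hypoxia alone. The fit recovered 38%, 80%, 90% and 96% of genes changed by 1.25, 1.5, 2 and 4 fold. In that fit of 15391 genes 7 unchanged genes were called. In the real data 48.1% of all genes were called for hypoxia in GLAD, so these shares do not give the recovery of the real fit.

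The design foresaw a count test if counts were deposited; CPM were found, so limma was used. Members, classes and lists were chosen with earlier results of these data known. Named in full are the 4 members of each class with the widest range of group means at 2 CPM or more, and in each comparison called members with the largest differences; Kif2c, Kif20a, Kif5b, Kif17 and Kif26a were added after their values were seen. The letters A and B were not treated as pairs in the main fit. Correlations of deviations ran from −0.158 to 0.317 over 21 pairs of groups, with a median of 0.0385 and 7 over 0.1. The labels do not say whether some groups share a batch by letter. Alternatives covered the filter, the added value, the scaling, the groups in the fit, the library letter as a block, the variance trend and each library left out. Removal of length and GC trends and the fit without wild type were chosen after seeing the data.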

Additional observations from a re-analysis of the deposited data

Results flagged for a closer look

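The hypoxia effect took opposite called signs in 2 mutants for several members, and the difference itself was tested. For TIN minus GLAD the difference was 0.89 for Kif20a, 1.04 for Kif22, 0.97 for Kif2c and −0.59 for Kif2a on the log2 scale. For double minus GLAD it was 0.73 for Kif18b. For double minus TIN it was −0.44 for Kif22, 0.75 for Kif2a, −0.86 for Kif2c and 1.19 for Kif5b. In all, differences were called for 16 members in TIN minus GLAD (33.9% of all genes) and 11 in double minus GLAD (14.5%). In double minus TIN 14 were called, near the share of all genes (42.8%). Each group had 2 libraries, so no test for a single distant library was made.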

How the results depend on the processing

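No alternative scaling (none, or median of ratios) reversed a member. Double minus GLAD fell from 11 called members to 7 with no filter on low values and to 7 with no variance trend. Leaving out 1 library gave 13 to 21 members called for hypoxia in GLAD, 17 to 22 in TIN, 15 to 21 in the double mutant and 24 to 28 on average. It gave 12 to 20 for TIN minus GLAD, 6 to 15 for double minus GLAD and 12 to 17 for double minus TIN. Against wild type it gave 17 to 23 in GLAD, 22 to 29 in TIN and 22 to 26 in the double mutant. In normoxia it gave 11 to 19 for TIN against GLAD, 10 to 17 for the double mutant against GLAD and 15 to 26 against TIN, and in hypoxia 25 to 27, 11 to 20 and 19 to 24. A lone library left in a group was assumed to vary like the other groups.

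With the length and GC trend removed these values changed sign, and the cause was not tested beyond that construction. They were Kif14 in TIN hypoxia (0.28) and against wild type in the double mutant (−0.054), and Kif20b in double minus TIN (−0.26). In TIN against GLAD in hypoxia they were Kif13b (0.068), Kif16b (0.064), Kif21a (0.0076), Kif2a (0.41), Kif3b (0.26) and Kif3c (0.078). In double mutant against TIN in hypoxia they were Kif15 (−0.29), Kif1b (−0.20), Kif2a (−0.22) and Kif3b (−0.064).

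With the library letter as a replicate block, 20 members were called for hypoxia in the double mutant, 26 against wild type in the double mutant and 18 in double mutant against GLAD in hypoxia, and 525 single values kept their side of the threshold while 3 gained a call. The count-based quasi-likelihood and Wald tests foreseen for counts were not run, because CPM were deposited. With 2 libraries a group, depth limits Kif17 and Kif26a, which lay near the 3-read limit.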
